A study of Mus musculus with 16 samples.

Results

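Amino acid transporter genes of 7 mouse families, Slc1, Slc3, Slc6, Slc7, Slc36, Slc38 and Slc43, were described over 4 groups of embryonic stem (ES) cells. The genes were taken by symbol alone, as every symbol of these families in the count tables. This gave 62 of the 23420 genes counted, of which 58 had a read in at least 1 library and 39 had enough reads to be tested. Of the 62 symbols, 61 name members of the families. The remaining one, Slc7a6os, matched by spelling only: it names the neighbour of Slc7a6 and is not a transporter gene.

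The cells were mouse J1 ES cells (129S4/SvJae background, passage 36), grown without feeder cells in medium with 2 kinase inhibitors and LIF (2i/LIF) and harvested on day 3. The study had 4 groups of 2 RNA-seq libraries, and every one of the 8 libraries carried the same transgenes: dCas9-VPR, a Cas9 that cannot cut joined to transcriptional activation domains, a guide RNA that targets the retroviral long terminal repeats called RLTR10B2, and DsRed. The groups were Dox + A-MYB cells, given doxycycline (Dox, 1 µg/ml) and induced to express A-MYB, the product of Mybl1 and a regulator of transcription in spermatocytes; A-MYB cells, with A-MYB induction only; Dox cells, with doxycycline only; and control cells, with neither. Induction was on days 1 and 2. Doxycycline was never given to cells lacking the activator or carrying a different guide, so the drug, the activator and its guide cannot be told apart in these comparisons. RNA came from single wells of a culture plate, and nothing in the labels says that 2 wells of a group were separate cultures before plating; p-values therefore measure the spread between these libraries. The culture medium contained serum, non-essential amino acids, a stable source of glutamine and β-mercaptoethanol, in all groups alike.

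Amino acids cross membranes through a few kinds of carriers. Slc7 light chains such as Slc7a5 exchange large neutral or cationic amino acids and reach the cell surface only when bound to an Slc3 heavy chain, while the cationic transporters Slc7a1, Slc7a2 and Slc7a3 work without one. Slc1 carriers take up glutamate or exchange small neutral amino acids, Slc38 carriers move glutamine and other small neutral amino acids with sodium, and Slc6 carriers take up glycine, taurine, creatine, proline and neurotransmitters with sodium and chloride. Slc36a1 and several Slc38 members act at the lysosome, and Slc43a1 and Slc43a2 are uniporters of branched-chain and other large neutral amino acids. Mouse ES cells are known for their need of threonine and glutamine, and cells short of amino acids raise transporter genes through the transcription factor ATF4, which binds amino acid response elements.

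Promoter windows of 4 genes are shown. Slc1a4 fell in all 4 comparisons and Slc38a9 rose in all 4. Slc3a1 was highest in the cells with both treatments, from few reads, and Slc7a11, the cystine carrier, had too few reads for a test but holds the amino acid response element in its window. Each line gives the 250 bases before the transcript start used in the RefSeq table of GRCm38.p6 (mm10), 5′ to 3′ on the strand of the gene. For Slc1a4 and Slc3a1 this start is the outer end of the gene's annotated span, while for Slc38a9 it lies 4577 bases and for Slc7a11 55474 bases inside the span, so other starts of these genes are not shown. Capitals mark matches, on either strand, to AACGG, the core of the motif bound by MYB proteins (CCGTT on the other strand), or to TGATGNAA, the core of the amino acid response element.
Slc1a4 (chr11:20332714-20332963, minus strand): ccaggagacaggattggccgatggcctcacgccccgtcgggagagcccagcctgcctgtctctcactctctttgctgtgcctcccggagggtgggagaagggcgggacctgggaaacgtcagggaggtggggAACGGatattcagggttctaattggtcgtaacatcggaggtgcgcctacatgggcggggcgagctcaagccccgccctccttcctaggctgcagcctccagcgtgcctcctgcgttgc
Slc38a9 (chr13:112660516-112660765, plus strand): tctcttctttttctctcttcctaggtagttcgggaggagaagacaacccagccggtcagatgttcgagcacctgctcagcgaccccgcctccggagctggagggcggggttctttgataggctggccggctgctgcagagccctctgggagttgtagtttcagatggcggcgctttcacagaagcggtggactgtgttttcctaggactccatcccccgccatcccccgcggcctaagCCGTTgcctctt
Slc3a1 (chr17:85028097-85028346, plus strand): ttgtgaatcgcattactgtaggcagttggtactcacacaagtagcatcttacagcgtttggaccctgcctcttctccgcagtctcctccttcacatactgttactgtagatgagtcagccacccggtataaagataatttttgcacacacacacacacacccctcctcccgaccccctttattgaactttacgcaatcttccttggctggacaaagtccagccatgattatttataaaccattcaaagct
Slc7a11 (chr3:50443614-50443863, minus strand): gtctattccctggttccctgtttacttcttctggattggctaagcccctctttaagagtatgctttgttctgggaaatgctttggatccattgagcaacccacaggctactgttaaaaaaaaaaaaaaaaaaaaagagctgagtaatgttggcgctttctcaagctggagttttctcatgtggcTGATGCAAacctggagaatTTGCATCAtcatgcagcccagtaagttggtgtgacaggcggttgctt

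The AACGG match of Slc1a4 begins 118 bases before this transcript start and that of Slc38a9 12 bases before its own. No match to either motif is in the Slc3a1 window, and the Slc7a11 window holds TGATGNAA at 66 and 47 bases before the transcript start used, once on each strand. Promoter windows were found for 44 of the 62 genes. AACGG was in windows of 8 of these 44 genes (18.2%), against 16.5% of all 27025 genes with a window. Slc38a7, Slc43a2, Slc7a6, Slc7a9, Slc6a5 and Slc6a20a were the others. TGATGNAA was in windows of 2 of the 44 genes (4.55%), Slc7a11 and Slc7a7, against 3.91% of all genes. A match to so short a motif is a description of the letters only.

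Library totals, summed over genes, were between 26995317 and 33771487, and all 12 ES cell markers examined were above 1 CPM (a gene's counts relative to the adjusted library size) in every library. Dox + A-MYB libraries differed from the rest: 17578 ± 33.9 genes had reads in them, against 16314 ± 50.9 in A-MYB, 16444.5 ± 95.5 in Dox and 16079.5 ± 74.2 in control libraries (SD, n = 2 each). The summed level of the 12 ES markers, Nanog and Esrrb among them, was 5345 to 5738 CPM in Dox + A-MYB, 8055 to 8293 CPM in A-MYB, 8666 to 8712 CPM in Dox and 8614 to 8843 CPM in control libraries. Summed germ cell markers (11 genes, with Acrv1, Prm1 and Tnp1 at 0) were at 156 to 172 CPM in Dox + A-MYB, 106 to 114 CPM in A-MYB, 112 to 121 CPM in Dox and 61.1 to 62.7 CPM in control libraries. Summed endoderm markers (11 genes) were at 18.9 to 22.4 CPM in Dox + A-MYB, against 6.89 to 10.7 CPM over the other 6. Summed markers were lowest in Dox + A-MYB libraries for feeder fibroblasts (10.4 CPM, against 21.2 to 23.3 CPM in control, 11 genes with Fap at 0), neural cells (209 to 210.0 CPM, against 388 to 391 CPM in control, 11 genes with Slc17a6 at 0) and trophoblast (91.0 to 99.3 CPM, against 135 to 136 CPM in control, 10 genes with Prl3d1 at 0). Single genes carry these sums: Pdgfrb averaged 5.73 CPM in Dox + A-MYB and 16.7 CPM in control libraries, and Tubb3 51.9 CPM and 254 CPM. Other markers were higher in Dox + A-MYB than in control libraries, among them Pdgfra, Col3a1, Dcn and Lum of the fibroblast list, Pax6 and Neurod1 of the neural list and Gata3, Krt18 and Hand1 of the trophoblast list. Of the ES list only Utf1 averaged more in Dox + A-MYB (93.1 CPM) than in control libraries (78.1 CPM). Of the germ cell list only Stra8 averaged less (2.77 and 4.91 CPM). Of the endoderm list only Gata6 (0.220 and 0.313 CPM) and Foxa2 (0.0735 and 0.117 CPM) averaged less, while Dab2 averaged 8.25 and 1.19 CPM. The part of these differences in the results below was not tested. In such bulk libraries, fewer cells of a type and less RNA per cell cannot be told apart. Mybl1 was at 19.9 and 16.6 CPM in Dox + A-MYB, 22.0 and 17.8 CPM in A-MYB, 11 and 10.2 CPM in Dox and 8.38 and 6.92 CPM in control libraries.

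Doxycycline alone lowered more transporter genes than it raised, and its effect in A-MYB cells went both ways. Of the 39 tested genes, 5 rose and 11 fell in Dox against control cells, where 17.9% of all tested genes rose and 14.3% fell. In Dox + A-MYB against A-MYB cells 12 rose and 10 fell, where 28.5% of all tested genes rose and 30.4% fell. A-MYB alone, against control, raised 6 and lowered 10 (19.5% and 15.2% of all tested genes), and Dox + A-MYB against Dox cells raised 11 and lowered 9 (26.8% and 28.4%). The median log2 fold change of the 39 genes was -0.13, 0.17, -0.00 and 0.19 in these 4 comparisons, beside 0.03, 0.01, -0.00 and 0.01 for all tested genes. Calls are those of edgeR's quasi-likelihood test with a Benjamini-Hochberg adjusted p under 0.05 over 14664 genes. Scaling to the total count alone moved the split to 8 higher and 10 lower in Dox against control, to 17 and 8 in Dox + A-MYB against A-MYB, and to 15 and 7 in Dox + A-MYB against Dox, and RLE scaling gave 3 and 14 in Dox against control.

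**Figure D1:**
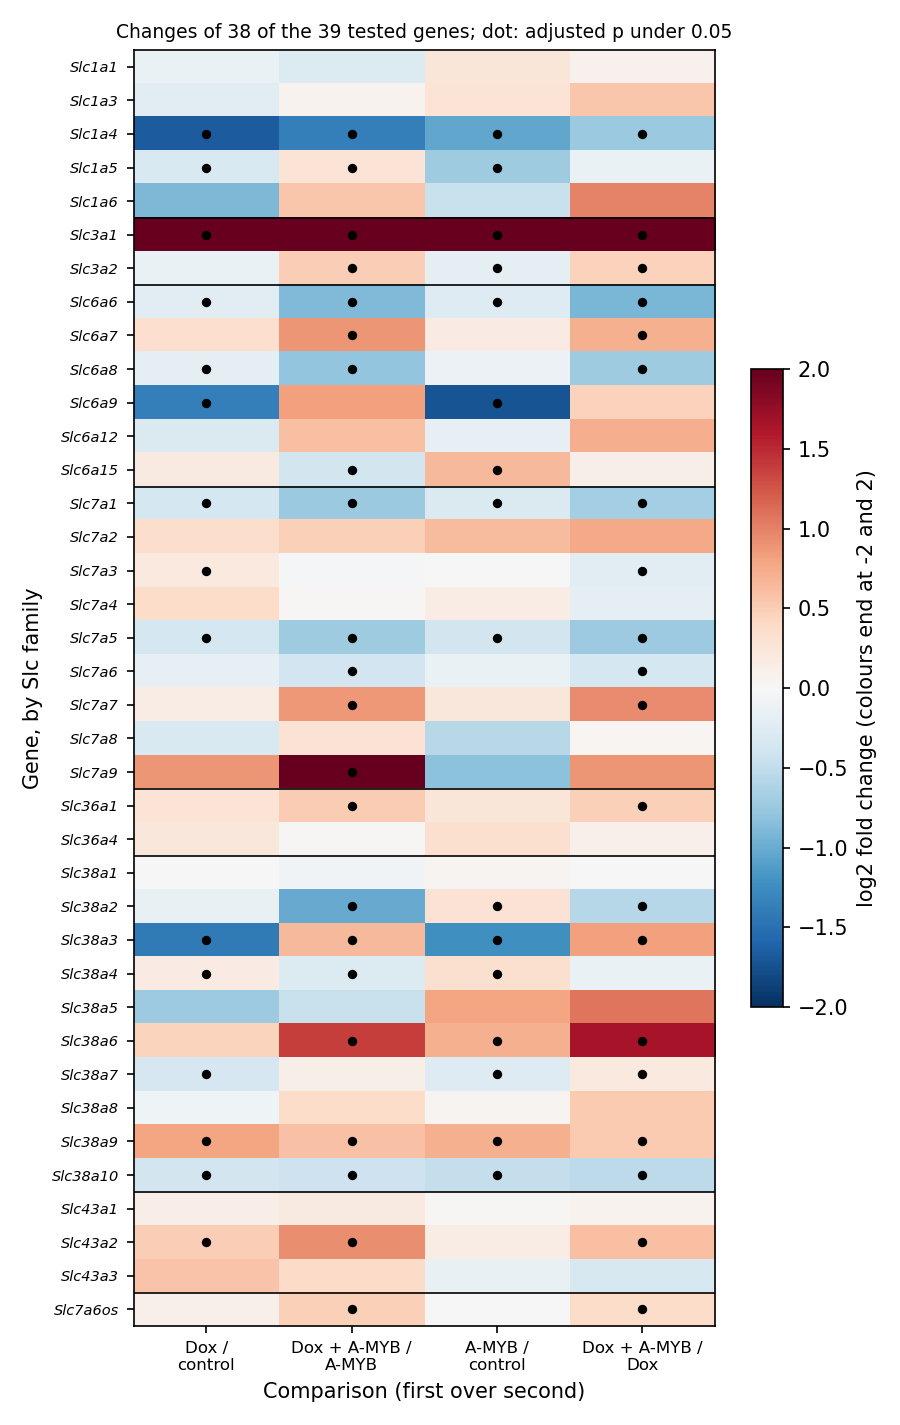
Log2 fold changes of 38 of the 39 tested genes (vertical axis, grouped by Slc family, with Slc7a6os last) in 4 comparisons (horizontal axis, first group over second). Red is higher and blue lower, colours end at -2 and 2, and a dot marks an adjusted p under 0.05; Slc1a4 and Slc7a5 are blue with a dot throughout and Slc3a1 and Slc38a9 red with a dot throughout.

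A group of 5 genes fell in all 4 comparisons: Slc1a4, Slc6a6, Slc7a1, Slc7a5 and Slc38a10, 12.8% of the 39 genes, beside 5.60% of all tested genes. Slc38a9 rose in all 4, as did 3.83% of all tested genes. Slc3a1 also passed as higher in all 4, but with 5 control reads, and its calls against control do not hold, as described with its values. Another 8 genes (20.5%; 12.9% of all tested) rose in some comparisons and fell in others, and 13 (33.3%; 22.3% of all tested) passed in none. The comparisons of Dox with control and of A-MYB with control share the control libraries, and those of Dox + A-MYB with A-MYB and with Dox share the Dox + A-MYB libraries, so these patterns rest on fewer than 4 independent tests. Level also moved with direction. All tested genes were ranked by mean CPM over the 8 libraries, which is not per length, and cut into 5 bins of near-equal size. The median log2 fold change in Dox + A-MYB against A-MYB was 0.92 in the lowest bin and -0.22 in the highest. Of the 10 transporter genes in the highest bin 7 fell and 1 rose there, where 1706 of all 2933 genes in that bin fell and 410 rose. Of the 19 in the 2 lowest bins 6 rose, Slc3a1 and Slc7a9 among them, and 0 fell. Among all genes, 1102 of 2932 rose and 117 fell in the lowest bin, and 1034 of 2933 rose and 525 fell in the next. The mean used for ranking includes the compared libraries, and a low gene could pass the filter through the group where it was high. A rise in the lowest bin is therefore partly built in. With genes that had reads enough in both control libraries ranked by those alone, the medians were 0.48 in the lowest bin and -0.25 in the highest. The part of expression level in the calls was not tested.

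The heavy chain Slc3a2 (CD98hc; chr19:8706882-8723369) and its main light chain Slc7a5 (LAT1, which imports leucine and other large neutral amino acids; chr8:121881146-121907686) moved in opposite directions in the cells with both treatments. Slc3a2 stood at 329 and 359 CPM in Dox + A-MYB, 235 and 256 CPM in A-MYB, 256 and 246 CPM in Dox and 269 and 285 CPM in control libraries. Both Dox + A-MYB libraries were above all others, and A-MYB and Dox libraries overlapped. Slc7a5 stood at 142 and 128 CPM in Dox + A-MYB, 212 and 229 CPM in A-MYB, 221 and 227 CPM in Dox and 275 and 294 CPM in control libraries, with both Dox + A-MYB libraries below and both control libraries above the rest.

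Slc3a2 rose in Dox + A-MYB against A-MYB (log2 fold change 0.49 ± 0.06 SE, adjusted p = 2.14e-07, edgeR) and against Dox cells (0.45 ± 0.06, 7.56e-07). It fell slightly in A-MYB against control (-0.17 ± 0.06, adjusted p = 0.0301), a call lost without control replicate 2 (0.139), A-MYB replicate 1 (0.182) or Dox replicate 1 (0.0511) and under total count scaling (0.0594). In Dox against control it was at -0.14 ± 0.06 (0.0844), which passed under RLE scaling (0.0387) and without any 1 of the A-MYB or Dox + A-MYB libraries (0.0114 to 0.0402). Slc7a5 fell by 0.71 ± 0.06 in Dox + A-MYB against A-MYB cells (8.61e-10) and by 0.73 ± 0.06 against Dox cells (5.87e-10). Each treatment alone lowered it too, by 0.35 ± 0.06 in Dox (0.000164) and by 0.37 ± 0.06 in A-MYB against control cells (7.41e-05). All 4 calls of Slc7a5 held in every alternative run.

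Other light chains of Slc3a2 went separate ways. Slc7a7 (y+LAT1, exporter of cationic amino acids; chr14:54369442-54420068) was at 24.6 and 23.1 CPM in Dox + A-MYB, 12.5 and 13.6 CPM in A-MYB, 12.1 and 12.6 CPM in Dox and 11 and 11.4 CPM in control libraries. Dox + A-MYB libraries lay above all others, with a rise of 0.87 ± 0.11 over A-MYB (adjusted p = 4.06e-07) and of 0.95 ± 0.11 over Dox cells (1.16e-07, edgeR). Slc7a6 (y+LAT2, of the same transport type; chr8:106168219-106198714) was at 55.3 and 52.3 CPM in Dox + A-MYB, 70.6 and 70.1 CPM in A-MYB, 70.2 and 67.4 CPM in Dox and 77.3 and 76.2 CPM in control libraries. It was lowest in Dox + A-MYB, by 0.39 ± 0.07 against A-MYB (5.91e-05) and 0.36 ± 0.07 against Dox cells (0.00017). The second call was lost under total count scaling (0.055). In Dox against control Slc7a6 did not pass in the main run. It passed there as lower under RLE scaling (-0.19, adjusted p = 0.0475, edgeR), with DESeq2 (-0.19, 0.049) and in an edgeR fit on the 4 libraries compared (-0.18, 0.018). Slc7a8 (LAT2) had 0.367 to 1.44 CPM over the 8 libraries and passed nowhere.

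Ratios of counts within a library show the shift between chains without any scaling between libraries. Slc7a5 counts over Slc3a2 counts came to 0.432 and 0.355 in Dox + A-MYB, 0.902 and 0.895 in A-MYB, 0.862 and 0.920 in Dox and 1.02 and 1.03 in control libraries. Both Dox + A-MYB values lay below all others and both control values above. Slc7a6 over Slc3a2 was 0.168 and 0.146 in Dox + A-MYB libraries, against 0.268 to 0.301 in the other 6. Slc7a7 over Slc3a2 was 0.0748 and 0.0642 in Dox + A-MYB, 0.0534 and 0.0531 in A-MYB, 0.0472 and 0.0513 in Dox and 0.0411 and 0.0400 in control libraries, the opposite order. Transcript length enters such a ratio, so only its change between libraries can be read, and 2 libraries against 2 cannot give an exact permutation p under 0.333.

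**Figure D2:**
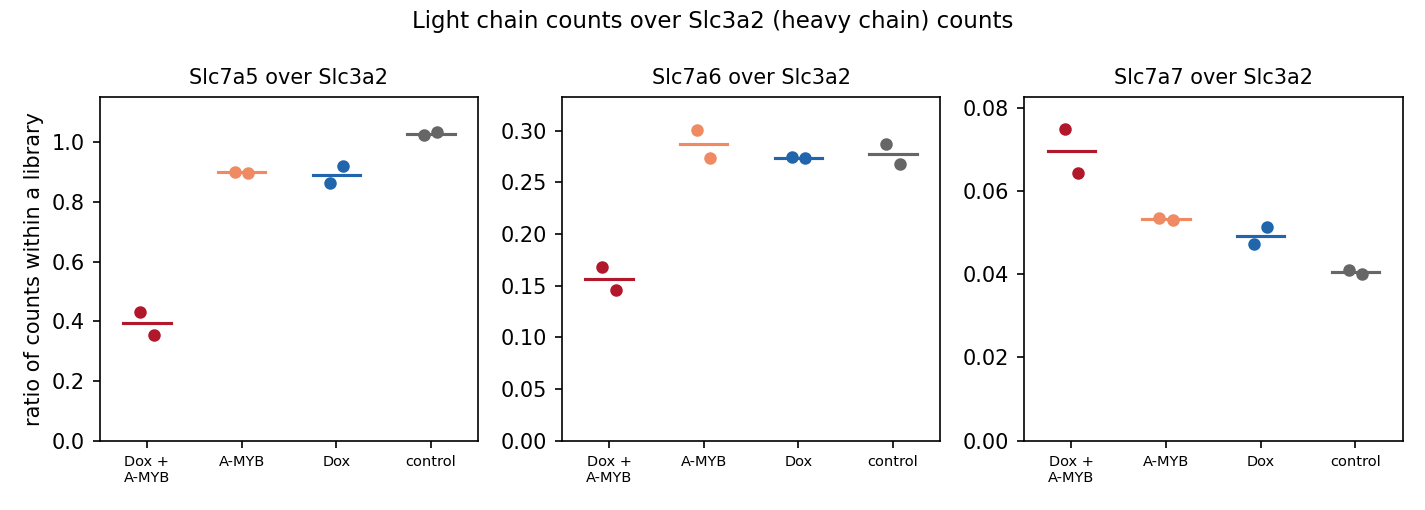
Counts of the light chains Slc7a5, Slc7a6 and Slc7a7 over counts of the heavy chain Slc3a2 within each library (vertical axis, no unit, from 0) in the 4 groups; points are the 2 libraries and lines their mean. Dox + A-MYB libraries are lowest for Slc7a5 and Slc7a6 and highest for Slc7a7.

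The second heavy chain, Slc3a1 (rBAT, which carries cystine and cationic amino acids in kidney together with Slc7a9; chr17:85028347-85064241), rose from very few reads. It was at 5.17 and 3.03 CPM in Dox + A-MYB, 0.731 and 0.902 CPM in A-MYB, 0.818 and 0.447 CPM in Dox and 0 and 0.194 CPM in control libraries, with no overlap between Dox + A-MYB and any other group. It rose by 2.32 ± 0.44 over A-MYB (adjusted p = 7.98e-05) and by 2.67 ± 0.45 over Dox cells (2.08e-05, edgeR). The rises of Dox cells (2.74 ± 0.76, 0.00746) and of A-MYB cells (3.1 ± 0.74, 0.00203) over control rest on 5 control reads, all in control replicate 2. No control library reached the level of the low-count filter for Slc3a1, which was tested because the other groups did, so a difference from control was built into its being tested. Without control replicate 1 they were 1.67 (0.135) and 2.02 (0.0567), without Dox replicate 1 Dox against control gave 2.23 (0.0843), and without control replicate 2 the control has no read and no fold is given. Its partner Slc7a9 was at 1.14 and 1.01 CPM in Dox + A-MYB, 0.146 and 0.200 CPM in A-MYB, 0.606 and 0.550 CPM in Dox and 0.277 and 0.350 CPM in control libraries. Slc7a9 rose in Dox + A-MYB against A-MYB cells (2.60 ± 0.62, 0.000899) and passed in no other comparison. No A-MYB library reached the filter level for Slc7a9, so this call too is against a group in which the gene could not have been tested on its own; it is named here after its values were seen, being under the level set for naming. Slc3a1 overlaps Prepl, which stayed between a mean of 41.9 CPM in Dox + A-MYB and 52.3 CPM in control libraries.

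Of the cationic amino acid transporters, Slc7a1 (CAT1, the widespread importer of arginine and lysine; chr5:148327410-148399904) was at 64.6 and 64.5 CPM in Dox + A-MYB, 109 and 107 CPM in A-MYB, 105 and 102 CPM in Dox and 133 and 131 CPM in control libraries. The 4 groups did not overlap. It fell by 0.74 ± 0.06 in Dox + A-MYB against A-MYB (adjusted p = 4.53e-10), 0.68 ± 0.06 against Dox (2.28e-09), 0.35 ± 0.06 in Dox against control (0.00015) and 0.29 ± 0.06 in A-MYB against control cells (0.000821, edgeR). Slc7a3 (CAT3, a related importer) held between 82.6 and 105 CPM in all libraries. It rose by 0.20 ± 0.07 in Dox against control (0.0385), a call that failed with any 1 of the control, Dox or A-MYB libraries left out (0.0726 to 0.345), and under RLE scaling (0.0759). In Dox + A-MYB against Dox cells it was lower by 0.23 ± 0.07 (0.00949), which failed without Dox replicate 1 (0.0875), without Dox + A-MYB replicate 2 (0.112) and under total count scaling (0.705). In the other comparisons it did not pass, with -0.02 ± 0.07 in Dox + A-MYB against A-MYB, which under total count scaling was 0.19 (0.0258), and -0.01 ± 0.07 in A-MYB against control cells. Slc7a2 had 0.727 to 3.18 CPM and Slc7a4 0.367 to 1.10 CPM, and neither passed. Slc7a2 was nearest, at 0.76 on the log2 scale in Dox + A-MYB against Dox cells (0.0648); there it passed under total count scaling, with no low-count filter, in a fit on the 4 libraries compared and without either control library (0.0224 to 0.0455). Without control replicate 2 it was also 1.5 higher in A-MYB than in control cells (0.0169).

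Among Slc1 genes, both exchangers of small neutral amino acids changed and the glutamate carriers did not pass in the main run. Slc1a4 (ASCT1, for alanine, serine, cysteine and threonine; chr11:20302180-20332713) was at 4.38 and 4.48 CPM in Dox + A-MYB, 11.9 and 11 CPM in A-MYB, 7.51 and 7.35 CPM in Dox and 22.6 and 24.5 CPM in control libraries. No 2 groups overlapped, and control was highest. It fell by 1.66 ± 0.13 in Dox against control (adjusted p = 5.79e-10), 1.37 ± 0.14 in Dox + A-MYB against A-MYB (7.58e-09), 1.04 ± 0.13 in A-MYB against control (9.75e-07) and 0.75 ± 0.14 in Dox + A-MYB against Dox cells (0.000104, edgeR), and all 4 calls held in every alternative run.

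Slc1a5 (ASCT2, which also carries glutamine; chr7:16781334-16798274) was at 49.2 and 52.9 CPM in Dox + A-MYB, 40.9 and 43.4 CPM in A-MYB, 55.1 and 57.0 CPM in Dox and 68.3 and 70.6 CPM in control libraries. A-MYB libraries were lowest and control libraries highest. It fell by 0.72 ± 0.08 in A-MYB against control (2.54e-07) and by 0.31 ± 0.08 in Dox against control cells (0.00317), where the call failed without Dox replicate 1 (0.0543), and it rose by 0.28 ± 0.08 in Dox + A-MYB against A-MYB cells (0.00386). In Dox + A-MYB against Dox cells it was at -0.14 ± 0.08 (0.139). The glutamate carrier Slc1a3 (GLAST) ranged from 2.44 to 4.18 CPM and was at 0.55 ± 0.24 in Dox + A-MYB against Dox cells (0.0563). There Slc1a3 passed under total count scaling (0.74, adjusted p = 0.0119) and with a filter of 1 CPM in 2 libraries (0.59, 0.0444, edgeR). Slc1a1 (EAAC1) ranged from 4.27 to 7.11 CPM and Slc1a6 from 0.267 to 0.905 CPM.

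The Slc38 family had the most tested members, 10 of 11, and they split. Slc38a2 (SNAT2, the amino acid importer best known for its rise on amino acid shortage; chr15:96687392-96699728) was at 114 and 99.3 CPM in Dox + A-MYB, 219 and 211 CPM in A-MYB, 160 and 158 CPM in Dox and 172 and 182 CPM in control libraries. Dox + A-MYB libraries were lowest and A-MYB libraries highest. It fell by 1.01 ± 0.07 in Dox + A-MYB against A-MYB (adjusted p = 2.34e-12) and by 0.57 ± 0.07 against Dox cells (6.71e-08, edgeR), and rose by 0.28 ± 0.07 in A-MYB against control cells (0.00141), a call lost without control replicate 1 (0.0774). In Dox against control it was at -0.15 ± 0.07 (0.0773), which passed under RLE scaling (0.0347) and without any 1 of the A-MYB or Dox + A-MYB libraries (0.00939 to 0.0461). Its neighbours on chromosome 15 did not follow it. Slc38a1 (SNAT1, a glutamine importer) lay between 86.4 and 97.3 CPM in all 8 libraries, with log2 fold changes of 0.00 in Dox against control, -0.07 in Dox + A-MYB against A-MYB, 0.06 in A-MYB against control and -0.01 in Dox + A-MYB against Dox cells, none of which passed; under total count scaling the last was 0.18 (0.0412). Slc38a4 (SNAT4) was at 199 and 180 CPM in Dox + A-MYB, 227 and 233 CPM in A-MYB, 215 and 201 CPM in Dox and 184 and 186 CPM in control libraries. Slc38a4 rose by 0.31 ± 0.06 in A-MYB against control (0.000324), fell by 0.28 ± 0.06 in Dox + A-MYB against A-MYB (0.000413; 0.358 under total count scaling), and its rise of 0.17 ± 0.06 in Dox against control (0.0372) failed with any 1 control, Dox or A-MYB library left out (0.0783 to 0.344) and under RLE scaling (0.0797).

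Slc38a3 (SNAT3, a glutamine carrier of liver, kidney and brain) was at 3.77 and 3.56 CPM in Dox + A-MYB, 1.83 and 2.84 CPM in A-MYB, 1.97 and 2.17 CPM in Dox and 4.78 and 6.26 CPM in control libraries. Either treatment alone lowered it, by 1.41 ± 0.25 in Dox (adjusted p = 0.000146) and 1.23 ± 0.25 in A-MYB cells (0.000485), and the cells with both lay between. Dox + A-MYB was above Dox cells by 0.83 ± 0.26 (0.00848; 0.0627 without Dox replicate 1) and above A-MYB cells by 0.64 ± 0.26 (0.0333, edgeR). The last call failed without A-MYB replicate 1 (0.37, 0.307) and without either Dox + A-MYB library (0.102 and 0.0645).

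Slc38a6 was at 18.4 and 16.6 CPM in Dox + A-MYB, 7.38 and 6.08 CPM in A-MYB, 5.18 and 6.01 CPM in Dox and 4.02 and 4.20 CPM in control libraries, and Dox + A-MYB libraries were above all others. It rose by 1.38 ± 0.15 over A-MYB (2.27e-08), by 1.64 ± 0.15 over Dox (1.59e-09) and by 0.71 ± 0.17 in A-MYB over control cells (0.00209; 0.0609 without A-MYB replicate 1), and was at 0.44 ± 0.17 in Dox against control (0.051, edgeR). Slc38a6 overlaps Trmt5, which passed in none of the 4 comparisons. Slc38a10 was at 78.6 and 84.3 CPM in Dox + A-MYB, 105 and 113 CPM in A-MYB, 115 and 121 CPM in Dox and 152 and 152 CPM in control libraries, falling by 0.37 to 0.53 in the 4 comparisons. Slc38a5 (0.0303 to 0.468 CPM) and Slc38a8 (1.03 to 2.1 CPM) passed nowhere.

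Carriers of the lysosome release amino acids from digested protein and tie them to mTORC1. Of the 4 described here, Slc38a9 and Slc36a1 rose, Slc38a7 fell with either treatment alone, and Slc36a4 passed nowhere. Slc38a9 (the lysosomal arginine sensor that binds the Rag GTPases; chr13:112656189-112738752) was at 14.7 and 13.3 CPM in Dox + A-MYB, 9.42 and 9.15 CPM in A-MYB, 9.27 and 10.2 CPM in Dox and 5.58 and 5.75 CPM in control libraries. Dox + A-MYB was highest, control lowest, and A-MYB and Dox overlapped. It rose by 0.78 ± 0.15 in Dox (adjusted p = 0.000237) and 0.71 ± 0.15 in A-MYB against control (0.000577), and in Dox + A-MYB by 0.59 ± 0.14 over A-MYB (0.000607) and 0.52 ± 0.13 over Dox cells (0.00195, edgeR), in every alternative run. Slc36a1 (PAT1, a proton-coupled exporter of small amino acids; chr11:55204322-55236330) was at 30.6 and 23.5 CPM in Dox + A-MYB, 19.8 and 18.2 CPM in A-MYB, 19.8 and 18.9 CPM in Dox and 15.9 and 16.1 CPM in control libraries. Its rises of 0.51 ± 0.11 over A-MYB (0.00049) and 0.48 ± 0.11 over Dox cells (0.000846) dropped to 0.30 (0.0393) and 0.28 (0.0616) without Dox + A-MYB replicate 1.

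Slc38a7 (SNAT7, a lysosomal glutamine exporter) was at 59.9 and 57.2 CPM in Dox + A-MYB, 53.5 and 54.1 CPM in A-MYB, 52.2 and 50.1 CPM in Dox and 63.1 and 65.7 CPM in control libraries. It fell with either treatment alone, by 0.33 ± 0.08 in Dox (0.00144) and 0.26 ± 0.08 in A-MYB cells (0.00904). In Dox + A-MYB against Dox cells it rose by 0.19 ± 0.07 (0.0303, edgeR), a call lost without either Dox library (0.0863 and 0.207), without Dox + A-MYB replicate 1 (0.14) and with no low-count filter (0.0677). Slc36a4 had 0.738 to 1.52 CPM.

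In the Slc6 family the taurine and creatine carriers fell in the cells with both treatments. Slc6a6 (the taurine transporter; chr6:91684048-91759063) was at 173 and 163 CPM in Dox + A-MYB, 315 and 302 CPM in A-MYB, 312 and 319 CPM in Dox and 363 and 373 CPM in control libraries. Dox + A-MYB libraries were lowest, control libraries highest, and A-MYB and Dox libraries overlapped. It fell by 0.88 ± 0.06 in Dox + A-MYB against A-MYB (adjusted p = 1.85e-12), 0.91 ± 0.06 against Dox (1.1e-12), 0.25 ± 0.06 in A-MYB against control (0.000931) and 0.22 ± 0.06 in Dox against control cells (0.00323, edgeR; 0.0652 without Dox replicate 1).

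Slc6a8 (the creatine transporter; chrX:73673133-73682502) was at 95.7 and 88.2 CPM in Dox + A-MYB, 161 and 156 CPM in A-MYB, 146 and 155 CPM in Dox and 171 and 173 CPM in control libraries. It fell by 0.79 ± 0.06 in Dox + A-MYB against A-MYB (1.11e-10) and 0.71 ± 0.06 against Dox cells (8.28e-10). Its smaller fall in Dox against control, 0.19 ± 0.06 (0.0197), failed without either control library (0.0616 and 0.0689), without Dox replicate 1 (0.243) and under total count scaling (0.0731), and in A-MYB against control it was at -0.12 ± 0.06 (0.16, edgeR; 0.0461 and 0.0454 without either Dox + A-MYB library).

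The glycine transporter Slc6a9 (GlyT1; chr4:117835258-117869305) was at 2.04 and 1.36 CPM in Dox + A-MYB, 1.10 and 0.835 CPM in A-MYB, 1.24 and 1.24 CPM in Dox and 3.12 and 3.30 CPM in control libraries. Control libraries were highest. It fell by 1.37 ± 0.33 in Dox (adjusted p = 0.00267) and 1.73 ± 0.35 in A-MYB against control (0.000371), and was at 0.82 ± 0.36 in Dox + A-MYB against A-MYB (0.0502; 0.0488 under RLE scaling and 0.0315 without Dox + A-MYB replicate 2) and 0.46 ± 0.34 against Dox cells (0.263, edgeR). Slc6a15, a carrier of branched-chain amino acids and proline, was at 16.7 and 13.1 CPM in Dox + A-MYB, 19.1 and 19.2 CPM in A-MYB, 13.8 and 13.8 CPM in Dox and 11.8 and 12.5 CPM in control libraries. It rose by 0.65 ± 0.13 in A-MYB against control (0.000243) and fell by 0.37 ± 0.12 in Dox + A-MYB against A-MYB cells (0.0117), which without Dox + A-MYB replicate 2 was -0.21 (0.195) and under total count scaling -0.16 (0.276).

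The proline transporter Slc6a7 was at 4.70 and 3.95 CPM in Dox + A-MYB, 2.78 and 1.94 CPM in A-MYB, 3.12 and 2.17 CPM in Dox and 1.90 and 2.29 CPM in control libraries. It rose by 0.88 ± 0.27 over A-MYB (adjusted p = 0.00684; 0.1 without A-MYB replicate 2 and 0.0588 without Dox + A-MYB replicate 1) and by 0.70 ± 0.26 over Dox cells (0.0259; 0.46 and 0.237 without Dox replicate 2, and 0.154 without Dox + A-MYB replicate 1). Slc6a12, a betaine carrier, had 0.0668 to 0.467 CPM and passed nowhere.

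Of the Slc43 genes, Slc43a2 (LAT4, a uniporter of large neutral amino acids; chr11:75529915-75577575) was at 33.3 and 31.8 CPM in Dox + A-MYB, 16.5 and 17.6 CPM in A-MYB, 21.1 and 22.0 CPM in Dox and 15.0 and 15.7 CPM in control libraries. No 2 groups overlapped, and Dox + A-MYB was highest. It rose by 0.93 ± 0.10 in Dox + A-MYB over A-MYB (adjusted p = 1.45e-08), 0.60 ± 0.10 over Dox (1.08e-05) and 0.49 ± 0.10 in Dox over control cells (0.00074), and was at 0.15 ± 0.10 in A-MYB against control (0.282, edgeR). Slc43a1 (LAT3) ranged only from 10.8 to 13.3 CPM and did not pass. Under total count scaling it was 0.39 higher in Dox + A-MYB than in A-MYB cells (0.0123, edgeR). Slc43a3, a carrier of purine nucleobases, was at 0.56 ± 0.22 in Dox against control (0.0506, edgeR). It passed there under total count scaling (0.0354), with no low-count filter (0.0266) and in a fit on the 4 libraries compared (0.0168). It also passed without control replicate 2 (0.78 on the log2 scale), Dox replicate 2 (0.76), A-MYB replicate 2 (0.54) or either Dox + A-MYB library (0.54). Under total count scaling it was 0.59 higher in Dox + A-MYB than in A-MYB cells (0.025).

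**Figure D3:**
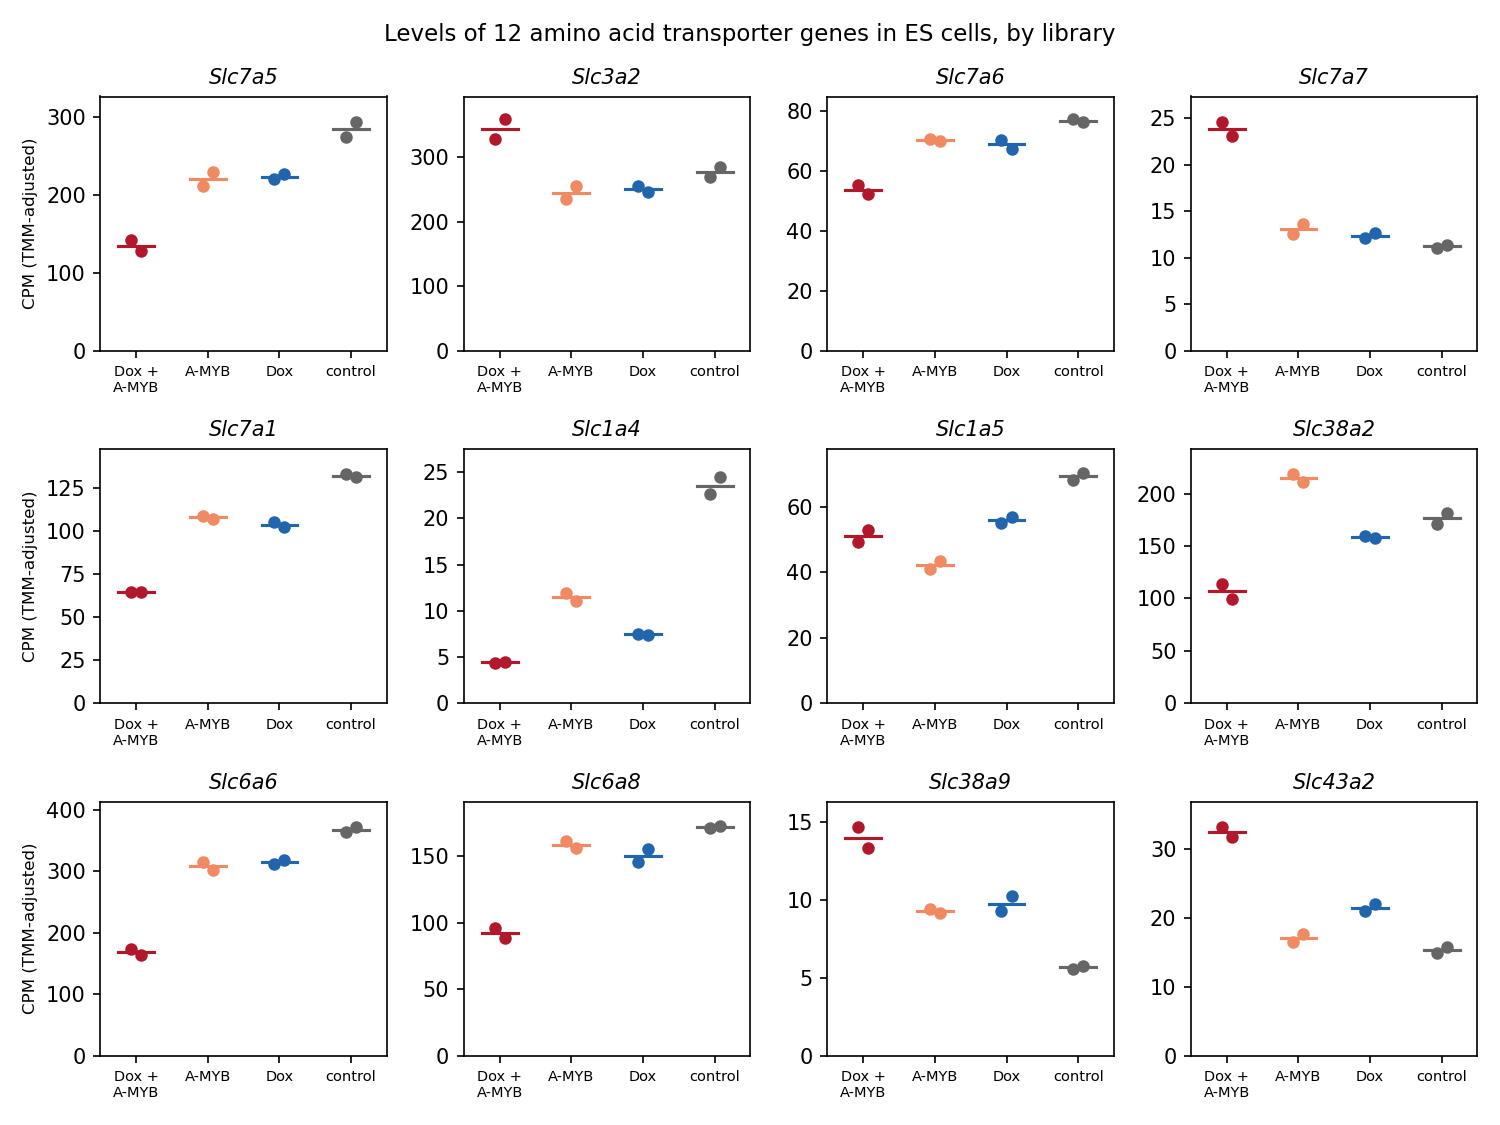
Levels of 12 transporter genes (vertical axis, TMM-adjusted CPM, from 0, a scale per gene) in the 4 groups; points are the 2 libraries and lines their mean. Slc7a5, Slc7a6, Slc7a1, Slc1a4, Slc38a2, Slc6a6 and Slc6a8 are lowest in Dox + A-MYB libraries, and Slc3a2, Slc7a7, Slc38a9 and Slc43a2 are highest there.

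Whether doxycycline acted differently in cells with A-MYB induction was tested by the interaction. The interaction is the log2 fold change of Dox + A-MYB over A-MYB minus that of Dox over control. It passed above 0 for 9 of the 39 genes and below 0 for 7, where 16.4% and 24.5% of all tested genes did. The genes above 0 with the largest values were Slc6a9 (2.19 ± 0.49, adjusted p = 0.000842), Slc38a3 (2.06 ± 0.36, 6.53e-05), Slc38a6 (0.93 ± 0.23, 0.00208), Slc7a7 (0.73 ± 0.17, 0.00101) and Slc3a2 (0.63 ± 0.09, 3.23e-06, edgeR). For Slc6a9 and Slc38a3 either treatment alone lowered the gene and the second one did not lower it again, while for Slc38a6, Slc7a7 and Slc3a2 the level in cells with both exceeded all others. Farthest below 0 were Slc38a2 (-0.86 ± 0.09, 1.17e-07), Slc6a6 (-0.65 ± 0.08, 6.19e-07), Slc6a8 (-0.59 ± 0.09, 8.99e-06), Slc6a15 (-0.54 ± 0.18, 0.0156) and Slc38a4 (-0.45 ± 0.09, 0.000215). Slc7a5 (-0.36 ± 0.09, 0.00222) and Slc7a1 (-0.39 ± 0.09, 0.00122) were also below 0, but not under total count scaling (0.0867 and 0.0522), and the value of Slc6a15 failed without control replicate 1 (0.0797), without Dox + A-MYB replicate 2 (0.116) and under total count scaling (0.0906). Slc1a4 (0.29 ± 0.19, 0.238) and Slc38a9 (-0.19 ± 0.20, 0.481) did not pass. The median interaction was 0.24 over the 39 genes and -0.00 over all tested genes.

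**Figure D4:**
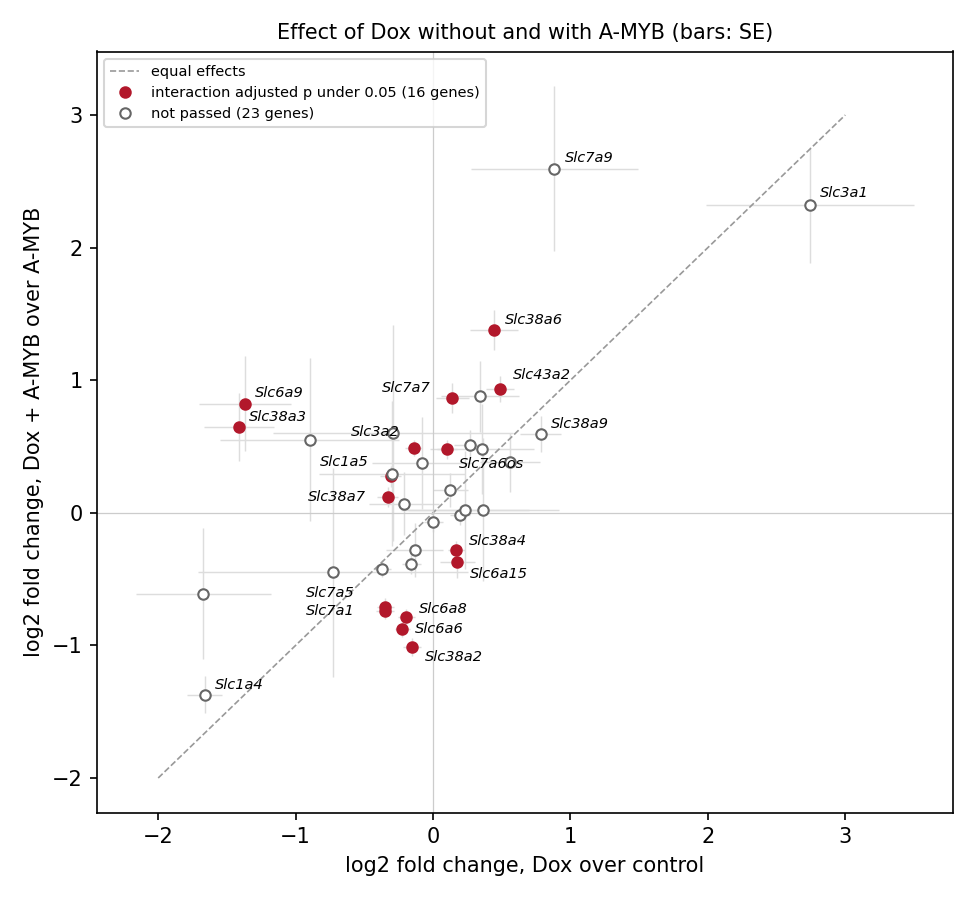
Log2 fold change of Dox over control (horizontal axis) against that of Dox + A-MYB over A-MYB (vertical axis) for the 39 tested genes, with bars of 1 SE and a dashed line of equal effects; filled points passed the interaction test (16 genes). Slc6a9 and Slc38a3 lie at the upper left, Slc38a2, Slc6a6 and Slc6a8 below the line, and Slc1a4 and Slc3a1 near it.

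Reads were too few for a test in 23 genes. Slc38a11, Slc6a18, Slc7a12 and Slc7a13 had none, and Slc1a2, Slc1a7, Slc36a2, Slc36a3, Slc6a2, Slc6a4, Slc6a5, Slc6a11, Slc6a13, Slc6a17, Slc6a19, Slc6a20a, Slc6a20b, Slc7a10 and Slc7a15 had 2 to 28 reads summed over the 8 libraries. Slc7a11 (xCT, which imports cystine for glutathione) had 9 and 13 reads in Dox + A-MYB, 4 and 2 in A-MYB, 4 and 6 in Dox and 0 and 0 in control libraries. Slc6a14, a broad carrier of neutral and cationic amino acids, had 10 and 11 reads in Dox + A-MYB, 0 and 1 in A-MYB, 0 and 2 in Dox and 0 and 0 in control libraries. Slc7a14 had 15 and 8 reads in Dox + A-MYB, 0 and 1 in A-MYB, 1 and 1 in Dox and 2 and 0 in control libraries, and Slc6a3, the dopamine transporter, had 10 and 6 reads in Dox + A-MYB, 2 and 1 in A-MYB, 0 and 4 in Dox and 0 and 0 in control libraries. In each of these 4 genes both Dox + A-MYB libraries had more reads than any other library. Slc6a14, Slc7a14 and Slc6a3 lie outside the rule for naming and are given because of these counts. Slc6a13 (5 and 10 reads in Dox + A-MYB) and Slc6a2 (4 and 3) had the same order. Slc6a20a did not, with 0 and 1 reads in Dox + A-MYB and 13 and 2 in Dox libraries. More genes of all kinds had reads in those libraries, as given above, and no test was run on these counts.

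Several members lie side by side in the genome. Slc38a1, Slc38a2 and Slc38a4 follow each other on chromosome 15 with gaps of 43.95 and 295.1 kb and no annotated coding gene between them, and differed as described. Slc7a6os lies 1.72 kb from Slc7a6 and went the other way: it was at 93.0 and 94.7 CPM in Dox + A-MYB, 65.0 and 69.7 CPM in A-MYB, 69.5 and 75.5 CPM in Dox and 69.0 and 66.2 CPM in control libraries. It rose by 0.48 ± 0.07 over A-MYB (adjusted p = 3.63e-06) and 0.37 ± 0.07 over Dox cells (9.54e-05, edgeR). The libraries came from a strand-marking kit, but how the counting treated strand is not stated in the labels, so reads of Slc3a1, Slc6a9, Slc7a7, Slc38a6 and Slc7a3 and of the genes that overlap them (Prepl, Ccdc24, Oxa1l, Trmt5 and Snx12) may not be fully separated. Of these partners Prepl fell in Dox + A-MYB against A-MYB (-0.20, 0.0364) and Dox cells (-0.31, 0.00259), and Oxa1l fell against Dox cells (-0.26, 0.00094); none rose.

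Genes of the amino acid response fell more often than they rose in each of the 4 comparisons. Of 22 such genes, chosen as targets or regulators of ATF4 with no Slc gene among them, 0 rose and 15 fell in Dox against control, 3 rose and 11 fell in Dox + A-MYB against A-MYB, 0 rose and 13 fell in A-MYB against control, and 4 rose and 12 fell in Dox + A-MYB against Dox cells. The falls are 68.2%, 50%, 59.1% and 54.5% of the list, where 14.3%, 30.4%, 15.2% and 28.4% of all tested genes fell. Their median log2 fold changes were -0.46, -0.31, -0.36 and -0.29. Total count scaling gave 1 rise in Dox against control, 6 rises in Dox + A-MYB against A-MYB and 7 falls in Dox + A-MYB against Dox cells. Psat1 and Phgdh, which make serine, fell in all 4, with Psat1 at 161 and 162 CPM in Dox + A-MYB, 253 and 258 CPM in A-MYB, 218 and 211 CPM in Dox and 339 and 332 CPM in control libraries. Shmt2, which converts serine to glycine in mitochondria, was at 143 and 144 CPM in Dox + A-MYB, 288 and 303 CPM in A-MYB, 268 and 287 CPM in Dox and 382 and 381 CPM in control libraries, and fell by 1.04 ± 0.06 in Dox + A-MYB against A-MYB cells (adjusted p = 8.15e-14, edgeR).

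Atf4 and Ddit3, transcription factors of the response, were highest in the cells with both treatments. Atf4 was at 441 and 483 CPM in Dox + A-MYB, 302 and 308 CPM in A-MYB, 309 and 320 CPM in Dox and 342 and 330 CPM in control libraries, with an interaction of 0.70 ± 0.08 (3.47e-07); in Dox against control it was at -0.10 ± 0.06 (0.212). Ddit3 (CHOP) was at 21.4 and 22.3 CPM in Dox + A-MYB, 11.5 and 11.6 CPM in A-MYB, 8.39 and 8.42 CPM in Dox and 10.3 and 12.8 CPM in control libraries, and rose by 0.92 ± 0.12 over A-MYB (6.64e-07) and 1.38 ± 0.13 over Dox cells (1.43e-09, edgeR). In Dox against control Ddit3 fell by 0.46 ± 0.13 (0.0101), as 1 of the 15 falls there.

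Enzymes that use threonine, glycine, glutamine and related amino acids also had more falls than rises: of 25 tested, 3 rose and 12 fell in Dox against control, 2 rose and 18 fell in Dox + A-MYB against A-MYB, 3 rose and 11 fell in A-MYB against control, and 0 rose and 19 fell in Dox + A-MYB against Dox cells, with medians of -0.16, -0.44, -0.13 and -0.34. The falls are 48.0%, 72.0%, 44.0% and 76.0% of the list, beside the shares of all tested genes just given. Many genes of this list, such as Bcat1, Odc1, Tdh and Glud1, had high levels. In the highest of the 5 bins of level, 1706 of 2933 genes fell in Dox + A-MYB against A-MYB and 1699 against Dox cells. Neither this list nor that of the amino acid response was matched in level to all tested genes. Total count scaling gave 5 rises in Dox + A-MYB against A-MYB, and 3 rises and 12 falls in Dox + A-MYB against Dox cells. The rises in Dox against control came down to 1 without any 1 of the control or Dox libraries, and those in Dox + A-MYB against A-MYB to 1 without Dox + A-MYB replicate 2. Mat2a, which makes S-adenosylmethionine, was at 216 and 168 CPM in Dox + A-MYB, 471 and 457 CPM in A-MYB, 448 and 433 CPM in Dox and 412 and 404 CPM in control libraries. It fell by 1.27 ± 0.08 against A-MYB (4.59e-09) and 1.20 ± 0.08 against Dox cells (1.06e-08). Tdh, the threonine dehydrogenase on which mouse ES cells depend, was at 469.6 and 484 CPM in Dox + A-MYB, 571 and 616 CPM in A-MYB, 674 and 687 CPM in Dox and 648 and 653 CPM in control libraries, and fell by 0.51 ± 0.06 against Dox cells (2.23e-08, edgeR).

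Genes of amino acid sensing by mTORC1 went both ways. Of 33 tested, 4 rose and 5 fell in Dox against control, 12 and 10 in Dox + A-MYB against A-MYB, 9 and 8 in A-MYB against control, and 9 and 13 in Dox + A-MYB against Dox cells. Of all tested genes 17.9% rose and 14.3% fell, 28.5% and 30.4%, 19.5% and 15.2%, and 26.8% and 28.4% in these comparisons, against 12.1% and 15.2%, 36.4% and 30.3%, 27.3% and 24.2%, and 27.3% and 39.4% of the list, so the list is near the share of all genes in most of them. Total count scaling gave 7 rises in Dox against control, 6 falls in Dox + A-MYB against A-MYB and 5 falls in Dox + A-MYB against Dox cells. The 8 falls in A-MYB against control came to 4 without either control library and to 2 without A-MYB replicate 1. The 4 rises in Dox against control came to 2 without control replicate 1, the 12 in Dox + A-MYB against A-MYB to 6 without A-MYB replicate 2, and the 13 falls against Dox cells to 7 without Dox replicate 1. Rragc, a Rag GTPase to which Slc38a9 binds, was at 94.2 and 81.4 CPM in Dox + A-MYB, 57.4 and 52.5 CPM in A-MYB, 52.6 and 52.9 CPM in Dox and 35.0 and 34.0 CPM in control libraries. Flcn, an activator of that GTPase, was at 101 and 103 CPM in Dox + A-MYB, 53.3 and 57.1 CPM in A-MYB, 53.5 and 54.7 CPM in Dox and 38.6 and 44.7 CPM in control libraries. As for Slc38a9, Dox + A-MYB libraries were highest and control libraries lowest in both, and A-MYB and Dox libraries overlapped. Of these middle groups the mean was higher in Dox for Slc38a9 and in A-MYB for Rragc and Flcn. Rragd was also highest in Dox + A-MYB and lowest in control libraries. Rraga was not, with means of 89.3 CPM in Dox + A-MYB, 104 CPM in A-MYB, 97.4 CPM in Dox and 94.6 CPM in control libraries. The likeness is a description over 4 groups. Seh1l, of the GATOR2 complex, fell by 0.88 ± 0.07 in Dox + A-MYB against A-MYB (adjusted p = 2.14e-11) and rose by 0.41 ± 0.06 in A-MYB against control cells (2.42e-05, edgeR).

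Amino acid transporters outside the 7 families, 20 tested, had 4 rises and 6 falls in Dox against control, 7 and 8 in Dox + A-MYB against A-MYB, 4 and 4 in A-MYB against control, and 7 and 6 in Dox + A-MYB against Dox cells. These are 20.0% and 30.0%, 35.0% and 40.0%, 20.0% and 20.0%, and 35.0% and 30.0% of the list, beside the shares of all tested genes given for the mTORC1 list. The 6 falls in Dox against control do not hold: there were 0 without Dox replicate 1, 2 without Dox replicate 2 or control replicate 1, and 3 under total count scaling, which also left 5 of the 8 falls in Dox + A-MYB against A-MYB cells. In A-MYB against control, rises came to 2 without control replicate 1, and falls ranged from 1 without control replicate 1 or A-MYB replicate 1 and 2 without A-MYB replicate 2 to 7 without Dox + A-MYB replicate 2. Ubac2, which is on the list but not known as a transporter, was 1 of the falls in Dox against control. Ctns, the lysosomal cystine exporter, was at 46.2 and 45.2 CPM in Dox + A-MYB, 23.0 and 23.5 CPM in A-MYB, 23.1 and 22.8 CPM in Dox and 14.0 and 17.3 CPM in control libraries. Slc15a4, a lysosomal carrier of histidine and peptides, was at 77.8 and 72.7 CPM in Dox + A-MYB, 41.9 and 45.1 CPM in A-MYB, 45.4 and 44.9 CPM in Dox and 35.1 and 35.7 CPM in control libraries. Slc25a44, a mitochondrial importer of branched-chain amino acids, rose by 0.97 ± 0.07 in Dox + A-MYB against A-MYB (adjusted p = 1.42e-11) and by 0.56 ± 0.07 in Dox against control cells (1.98e-06). Of the falls, Slc15a1, a peptide transporter of the cell surface, fell by 1.83 ± 0.15 in Dox + A-MYB against A-MYB (2.05e-10), and Slc25a15, the mitochondrial ornithine carrier, by 1.02 ± 0.07 (1.11e-11, edgeR).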

How the data were processed

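RNA-seq was analysed from 8 ES cell libraries, 2 in each of 4 groups taken from the sample labels; the spermatocyte ChIP-seq and input libraries were not analysed here. The authors deposited raw counts: unnormalized integers for each gene symbol. Per the submitters' processing notes, the tools were bcl2fastq 2.20.0, HISAT2 2.1.0, Bowtie2 2.3.3.1, HTSeq and MACS 1.4.2 with the build mm10; their roles and the strand setting of the counting are not given in the sources used here. The 5 special lines of each table were left out of library sizes. One of them counts reads that met no gene. As a share of all counts, genes and special lines together, it was 9.11% ± 0.45 in Dox + A-MYB, 7.94% ± 0.56 in A-MYB, 7.64% ± 0.27 in Dox and 7.31% ± 0.04 in control libraries (SD, n = 2 each).

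Genes passing filterByExpr (14664 of 18917 with a read) were scaled by TMM and fitted with edgeR 4.0.16 (limma 3.58.1, R 4.3.3; glmQLFit, robust, 1 model for 4 groups, 4 residual degrees of freedom). The 4 contrasts and their interaction were tested with glmQLFTest (two-sided), and a Benjamini-Hochberg adjusted p under 0.05 over all tested genes passed. SE is the absolute log2 fold change over the square root of F. Replicates differed by more than sampling noise (chi-square per degree of freedom 5.46 to 14.4). Gene spans and promoter windows come from RefSeq tables of GRCm38.p6, the assembly of mm10, matched by symbol. No transcript lengths were used, so levels are not compared between genes.

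The 62 genes and the pathway lists were chosen with earlier results of these data known. Except where stated, genes were named by rule: 16 fixed carriers in every comparison, and the 10 largest rises and falls that passed (5 for the interaction). Genes taken by size had a log2 of the mean CPM of 0 or more. They also had no overlap of libraries, a condition not set for the interaction. From each list up to 4 genes with the smallest p were named. Of the 39 tested genes, Slc3a1 passed the count filter through groups other than control, Slc7a9 through groups other than A-MYB, and Slc1a6, Slc38a5 and Slc6a12 also had a group with no library at its level; 1 other gene is counted but not reported singly here. Alternatives were RLE and total count scaling, other filters, DESeq2 1.42.0, a fit on the libraries compared, a replicate block, and leaving out each library. The test was also run on simulated counts, with the same spread for all genes and changes in the Dox group only. These settings differ from the data, so no result here rests on that run.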

Additional observations from a re-analysis of the deposited data

Results flagged for a closer look

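For 16 of the 39 tested genes the effect of doxycycline differed between cells with and without A-MYB induction by the interaction test of edgeR. The interaction is the log2 fold change of Dox + A-MYB over A-MYB minus that of Dox over control, with p adjusted over all tested genes. Of all tested genes 16.4% passed above 0 and 24.5% below 0, so a count of 9 and 7 among the 39 is not particular to them. Values above 0 were found for Slc38a7, 0.45 ± 0.11 SE (adjusted p = 0.00133), for Slc7a6os, which is not a transporter gene, 0.38 ± 0.10 (0.00455), and for 7 others: Slc6a9 2.19 ± 0.49 SE (adjusted p = 0.000842), Slc38a3 2.06 ± 0.36 (6.53e-05), Slc38a6 0.93 ± 0.23 (0.00208), Slc7a7 0.73 ± 0.17 (0.00101), Slc3a2 0.63 ± 0.09 (3.23e-06), Slc1a5 0.58 ± 0.11 (0.00014) and Slc43a2 0.45 ± 0.14 (0.0144). Values below 0 were found for 7: Slc38a2 -0.86 ± 0.09 (1.17e-07), Slc6a6 -0.65 ± 0.08 (6.19e-07), Slc6a8 -0.59 ± 0.09 (8.99e-06), Slc6a15 -0.54 ± 0.18 (0.0156), Slc38a4 -0.45 ± 0.09 (0.000215), Slc7a1 -0.39 ± 0.09 (0.00122) and Slc7a5 -0.36 ± 0.09 (0.00222). Without Dox replicate 1 the value of Slc43a2 was 0.40 (0.0723) and that of Slc7a6os 0.31 (0.0561). For Slc1a5, Slc38a3 and Slc38a4 the Dox effect changed sign between cells with and without A-MYB induction, each passing in both directions. None of the 3 held under every alternative. In Dox against control, the fall of Slc1a5 failed without Dox replicate 1 (0.0543) and the rise of Slc38a4 with any 1 control, Dox or A-MYB library left out (0.0783 to 0.344). The rise of Slc38a3 in Dox + A-MYB against A-MYB cells failed without A-MYB replicate 1 (0.307).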

How the results depend on the processing

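Every comparison was repeated with other scalings, filters and tests, and with each library left out. Of the calls made, 9 of 16 held in all alternatives in Dox against control, 18 of 22 in Dox + A-MYB against A-MYB, 12 of 16 in A-MYB against control, 14 of 20 in Dox + A-MYB against Dox and 11 of 16 in the interaction. In Dox against control, 5 genes higher became 3 under RLE scaling, 8 under total count scaling, 3 with a filter of 1 CPM in 2 libraries and 3 with DESeq2; leaving out 1 library gave 2 to 7 higher and 7 to 14 lower (11 in the full set). Total count scaling, which moved the median of all genes to 0.22 in Dox + A-MYB against A-MYB, 0.20 against Dox and 0.16 in the interaction, left 4 of 7 genes below 0 in the interaction. It turned Slc7a3 to 0.19 in Dox + A-MYB against A-MYB (adjusted p = 0.0258) and Slc38a1 to 0.18 in Dox + A-MYB against Dox (0.0412). Same-numbered libraries correlated by -0.07 to 0.14 over 6 pairs of groups, 1 above 0.1, so the numbers are not taken to pair them; a replicate block gave 6 higher and 11 lower in Dox against control and left the counts of the other comparisons as they were. Genes with few reads are limited by depth: 23 were not tested, and calls of Slc3a1 and Slc7a9 rest on few reads.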
